A study of Mus musculus with 10 samples.

Results

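The nuclear genes for oxidative phosphorylation were examined in CD71+Ter119+ R2 erythroid precursors, which are immature red cells of the bone marrow. Members were the genes of the raw count table whose symbols began with Nduf followed by a, b, c, s or v and a number (complex I), were Sdha to Sdhd (complex II), or began with Uqcr (complex III), Cox4 to Cox8 (complex IV) or Atp5 (complex V). The rule used names only, and it took 84 of 24421 genes. Complex I had 37 members, complex II 4, complex III 8, complex IV 18 and complex V 17. The mice carried 1 or both copies of Ddx41, which encodes a DEAD-box helicase mutated in human myeloid neoplasms, and 1 or both copies of Trp53, which encodes p53.

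Each of the 10 libraries came from 1 mouse. Recipients were BoyJ mice that had been lethally irradiated and given marrow from Rosa-CreERT2 donors, so the inducible, ubiquitously expressed Cre recombinase was present in all genotypes. The donors of the Ddx41+/- groups carried 1 floxed Ddx41 allele, which was excised after transplant by tamoxifen at 1 mg per day for 5 days in 2 rounds, and all groups received tamoxifen. The Trp53+/- groups lacked 1 Trp53 copy in the germline of the donor. Cells were sorted 8 weeks after transplant. There were 3 Ddx41+/+;Trp53+/+ mice (mice 10, 11 and 12), 2 Ddx41+/-;Trp53+/+ mice (32 and 34), 3 Ddx41+/+;Trp53+/- mice (22, 23 and 24) and 2 Ddx41+/-;Trp53+/- mice (46 and 47). Cells of the irradiated host that remained in the marrow would have carried neither allele, and their number was not measured here.

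The libraries held 7866648 to 20283930 counts, with mice 34 and 22 the shallowest. Values are given in CPM, the counts of a gene scaled to a common library size after TMM normalization. Ddx41 was at 21.9 to 26.6 CPM in the 6 Ddx41+/+ mice and at 12.5 to 16.5 CPM in the 4 Ddx41+/- mice, and Trp53 was at 57.4 to 68.1 CPM in the 5 Trp53+/+ mice and at 40.3 to 46.2 CPM in the 5 Trp53+/- mice, so neither set of values overlapped and every library matched its labels. In the additive edgeR models the log2 fold changes were -0.70 for Ddx41 (adjusted p = 0.0173) and -0.48 for Trp53 (adjusted p = 0.00355). Erythroid genes were abundant, with Tfrc at 2692 to 3458 CPM and Slc4a1 at 25470 to 30512 CPM. The adult globin genes were almost empty in the deposited table, with 1 to 21 counts for Hba-a1 and 0 in every library for Hbb-bt and Hbb-b2. Markers of neutrophils were present as well: the 9 measured ones summed to 4927 to 8438 CPM, against 40866 to 46646 CPM for the 10 erythroid identity genes, 1 or 2 of which were at 0 in each library. The part of such cells in the results below was not tested.

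Oxidative phosphorylation is carried out in the inner mitochondrial membrane. Complexes I and II take electrons from NADH and succinate, complex III passes them from ubiquinol to cytochrome c, complex IV hands them to oxygen, and complex V makes ATP from the proton gradient that complexes I, III and IV build. All but complex II also hold subunits encoded by mitochondrial DNA. None of the 13 genes for these subunits was found in the count table by symbol, so they were not analysed here. Erythroid precursors depend on mitochondria for haem and iron-sulfur cluster synthesis, and lose them when the reticulocyte matures.

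Many of these genes are known to share binding sites for NRF1, for ETS factors such as GABPA, and for YY1 near their start sites. RefSeq promoters of assembly GRCm38.p6, from 250 bases before to 50 after the start site, were matched for 69 of the 84 members. They were searched on both strands for GCGCATGCG (the NRF1 motif), CCGGAAGT (ETS) and AAGATGGCG (YY1). GCGCATGCG was found for 11.6% of the 69 members and for 1.95% of all 27025 genes with a promoter, AAGATGGCG for 11.6% and 1.64%, and CCGGAAGT for 7.25% and 4.31%. At least 1 of the motifs was found for 20 members, or 29.0%, against 7.48% of all genes. The shares of the single motifs rest on 8, 8 and 5 members in that order, and genes of like expression level were not compared. A match is a description of the letters and not evidence of binding. The 100 bases just before the start site are given for the 9 members that had a whole match in that stretch, read 5′ to 3′ in the direction of the gene and with the matched letters in capitals. They were picked for holding a match, and likeness beyond the matched letters was not measured. The NRF1 motif is nearly its own reverse complement, so matches on both strands overlap in Ndufa11, Atp5g2 and Atp5k.
Ndufa11, chr17:56717662-56717761 on the plus strand: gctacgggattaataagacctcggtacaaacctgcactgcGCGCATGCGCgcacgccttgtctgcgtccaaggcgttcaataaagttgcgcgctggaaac
Ndufa8, chr2:36049339-36049438 on the minus strand: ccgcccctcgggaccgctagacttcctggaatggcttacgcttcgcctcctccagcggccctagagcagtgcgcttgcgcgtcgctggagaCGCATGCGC
Uqcr11, chr10:80406822-80406921 on the minus strand: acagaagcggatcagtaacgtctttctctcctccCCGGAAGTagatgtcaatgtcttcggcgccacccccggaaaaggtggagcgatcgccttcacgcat
Uqcrh, chr4:116075071-116075170 on the minus strand: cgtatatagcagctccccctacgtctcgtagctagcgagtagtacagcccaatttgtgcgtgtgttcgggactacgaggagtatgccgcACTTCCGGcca
Atp5g2, chr15:102671048-102671147 on the minus strand: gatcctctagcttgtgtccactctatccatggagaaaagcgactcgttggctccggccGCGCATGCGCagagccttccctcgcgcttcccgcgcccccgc
Atp5h, chr11:115419920-115420019 on the minus strand: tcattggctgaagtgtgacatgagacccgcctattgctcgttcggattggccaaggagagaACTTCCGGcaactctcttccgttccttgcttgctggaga
Atp5j, chr16:84834977-84835076 on the minus strand: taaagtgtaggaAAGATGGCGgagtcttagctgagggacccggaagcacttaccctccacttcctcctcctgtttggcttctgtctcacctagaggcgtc
Atp5k, chr5:108434400-108434499 on the minus strand: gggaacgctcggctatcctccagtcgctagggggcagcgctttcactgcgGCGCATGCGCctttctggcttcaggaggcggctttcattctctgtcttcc
Atp5sl, chr7:25619393-25619492 on the plus strand: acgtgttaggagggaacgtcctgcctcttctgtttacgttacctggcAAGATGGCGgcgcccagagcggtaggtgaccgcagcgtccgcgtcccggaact
The NRF1 motif stood in Ndufa11, Ndufa8, Atp5g2 and Atp5k, the ETS motif in Uqcr11, Uqcrh and Atp5h, and the YY1 motif in Atp5j and Atp5sl. The stretches came from complexes I, III and V. The YY1 matches of Ndufa9, Ndufc1, Ndufs4, Ndufs6, Ndufs7 and Atp5j2 lay after the start site, at 22 to 35 bases from it, and in Ndufs3 an ETS match began at the start site itself.

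Most members were well expressed. The filter on low counts kept 77 of the 84 members and 11846 of all genes: 35 of 37 in complex I, 4 of 4 in complex II, 8 of 8 in complex III, 13 of 18 in complex IV and 17 of 17 in complex V. Levels of different genes are compared per kb of the main coding transcript of GENCODE M21, in CPM per kb. By this measure 75 of the 77 tested members were above the median of all tested genes, which was 5.51 CPM per kb, and 68 were above the upper quartile of 20.4 CPM per kb. All 84 members together took 0.730% to 0.861% of the counts of a library.

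The complexes differed in level. The median member was at 47.7 CPM per kb in complex I and at 45.9 CPM per kb in complex II. It was at 99.1 CPM per kb in complex III, 152 CPM per kb in complex IV and 154 CPM per kb in complex V. In complex I the highest member was Ndufb9, an accessory subunit of the membrane arm, at 227 ± 13.5 CPM per kb (SD, n = 10), and the lowest was Ndufv3, an accessory subunit of the NADH-binding module, at 13.7 ± 1.53 CPM per kb (SD, n = 10). In complex II the order ran from the flavoprotein Sdha, at 62.1 ± 3.82 CPM per kb, through Sdhd and Sdhb to Sdhc, a membrane anchor, at 14.7 ± 1.82 CPM per kb. Uqcrh, the hinge protein of complex III, was at 310 ± 18.0 CPM per kb, and Uqcrq, a small subunit of the same complex, at 48.6 ± 4.77 CPM per kb. Cox6a1 led complex IV at 444 ± 30.9 CPM per kb, and Atp5b, the catalytic beta subunit of ATP synthase, was the highest of all members at 632 ± 40.2 CPM per kb. The lowest member of complex V was Atp5sl, at 2.09 ± 0.452 CPM per kb, a gene whose product is known as an assembly factor of complex I and not as a subunit of ATP synthase. These levels rest on the transcript lengths: with the longest transcript in place of the main one, 11 members lost more than 50% of their level. The complex medians were then 36.8, 44.3, 83.9, 88.7 and 81.4 CPM per kb from I to V, so complexes III to V lay close together. The low levels of Sdhc, Uqcrq and Atp5g1 come with main transcripts of 3171, 1521 and 4715 bases.

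**Figure D1:**
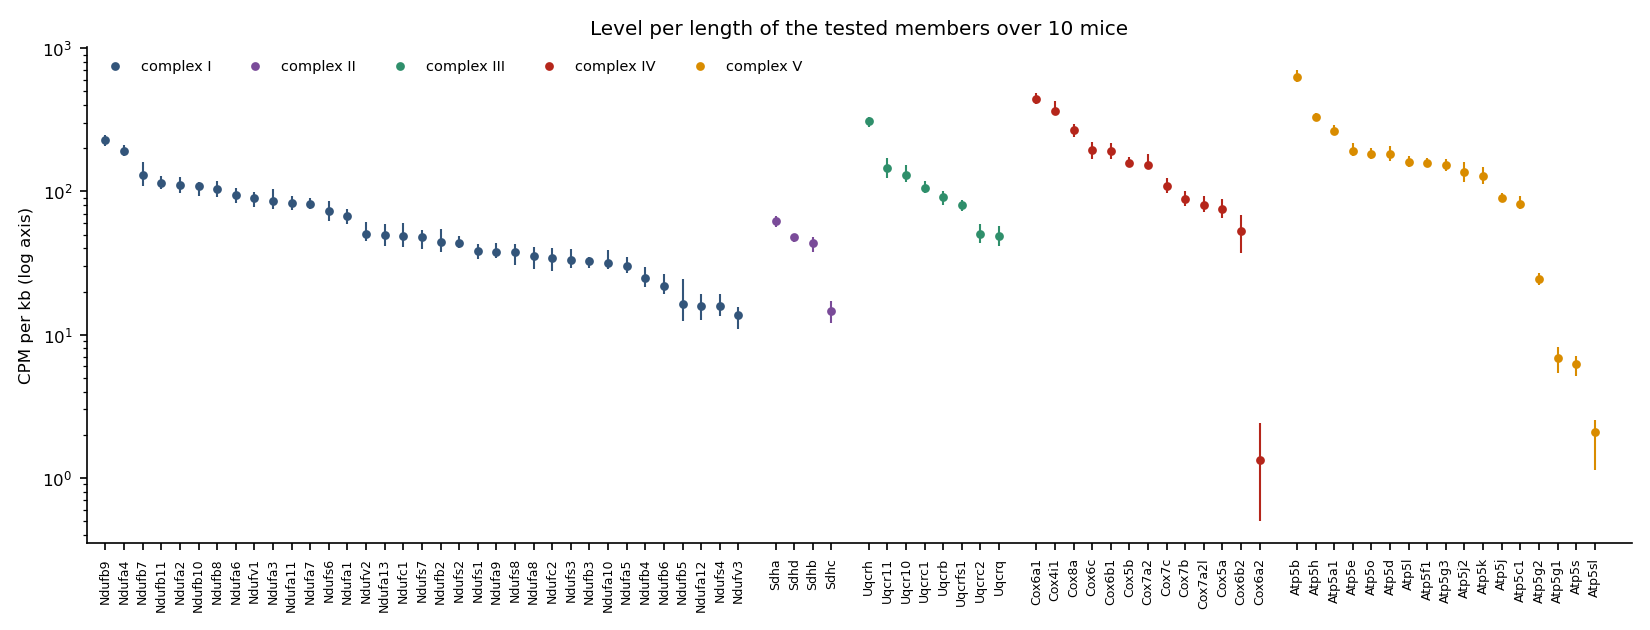
Level of each of the 77 tested members, in CPM per kb on a log axis, ordered within complexes I to V. Points are means over 10 mice and bars run from the lowest to the highest mouse. Atp5b was highest at 632 CPM per kb and Cox6a2 lowest at 1.34 CPM per kb, and within most members the bar is short beside the differences between members.

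Complex IV and the c-ring of ATP synthase have members with tissue isoforms, and most of the isoforms known from other tissues were at or near 0. Cox4i1, the common form of the subunit 4 gene, had 2226 to 6223 counts per library, and Cox4i2, known from lung, had 0 to 9 counts. Cox6a1 stood at 331 times the level per kb of Cox6a2, the heart and muscle form, with 182 to 944 times over the 10 mice. Cox7a2 had 764 to 2090 counts, and Cox7a1, also a heart and muscle form, had 0 to 4. Cox8a had 1275 to 3320 counts, Cox8b had 0 in every library, and Cox8c, a testis form, had 0 in 9 mice and 3 counts in mouse 23. Cox7b had 684 to 2076 counts, while Cox7b2, another testis form, had 0 counts in all 10. Ndufa4, which is named as a complex I gene but is known as a subunit of complex IV, had 927 to 2630 counts, and its paralogue Ndufa4l2 had 0 or 1. A count of 0 allows up to 0.381 CPM in the shallowest library and 0.148 CPM in the deepest, counting error only.

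Cox6b2 was different from the other minor isoforms. It is known mainly from testis, yet it had 283 to 764 counts per library and 53.2 ± 9.75 CPM per kb (SD, n = 10), against 191 ± 16.0 CPM per kb for the common form Cox6b1. The common form was thus only 3.60 times as high as Cox6b2, with 2.95 to 4.97 times over the 10 mice. Cox6b2 lies at chr7:4751792-4753094 on the minus strand of GRCm38 and Cox6b1 at chr7:30616861-30626151 on the same strand. Neither shared any stretch of 75 bases with another gene of the annotation, and neither had an exon overlapping an exon of another gene. The 100 bases before their RefSeq start sites are printed because the ratio of this pair is a result, and neither stretch held any of the 3 motifs.
Cox6b1, chr7:30626115-30626214 on the minus strand: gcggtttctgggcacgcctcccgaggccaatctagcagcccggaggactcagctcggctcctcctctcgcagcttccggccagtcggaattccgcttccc
Cox6b2, chr7:4753095-4753194 on the minus strand: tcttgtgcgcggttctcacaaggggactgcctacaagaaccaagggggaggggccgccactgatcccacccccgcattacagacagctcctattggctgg
Of these bases, 67% were G or C for Cox6b1 and 61% for Cox6b2.

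The genes for the c-ring encode the same mature protein. Atp5g3 was at 154 ± 11.9 CPM per kb, Atp5g2 at 24.4 ± 1.62 CPM per kb and Atp5g1 at 6.84 ± 0.854 CPM per kb (SD, n = 10 each). Per kb, Atp5g3 made up 82.1% to 84.1% of the sum, and this share did not separate the genotypes. The value of Atp5g2 is uncertain because 86.9% of its 75-base stretches were shared with other genes of the annotation, of which Gm10175 shared the most. Reads that match more than 1 gene may have been left out of the counts. The same applied to Atp5l (76.0%), Cox7c (50.4%) and Atp5h (40.3%). Ndufs5, a complex I subunit, had 0 counts in all 10 libraries. Of its stretches 32.4% were shared with other genes, of which BC002163 shared the most. Whether Ndufs5 was silent or not counted was not tested.

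The members were also steady. Over the 10 mice the median spread of a member within a genotype was 0.11 on the log2 scale, against 0.19 for all tested genes. Of the 770 values, 87.5% lay within 0.2 of the mean of their member. Since 68 members were above the upper quartile of level and genes of like level were not compared, nothing particular to the members is read from this. Mice of the same genotype nevertheless differed from each other. Each member was set to a mean of 0 on the log2 CPM scale over the 10 mice, and the members of each complex were averaged. The mean of the 77 members was 0.09 in mouse 10, 0.10 in mouse 11 and -0.08 in mouse 12, all Ddx41+/+;Trp53+/+. It was -0.03 in mouse 32 and 0.06 in mouse 34, both Ddx41+/-;Trp53+/+. In the Ddx41+/+;Trp53+/- mice it was 0.11 in mouse 22, -0.09 in mouse 23 and -0.04 in mouse 24. The Ddx41+/-;Trp53+/- mice 46 and 47 were at -0.06 and -0.07. Mice of the same genotype thus lay on both sides of 0 in 3 of the 4 genotypes, and the exception was the doubly heterozygous pair.

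**Figure D2:**
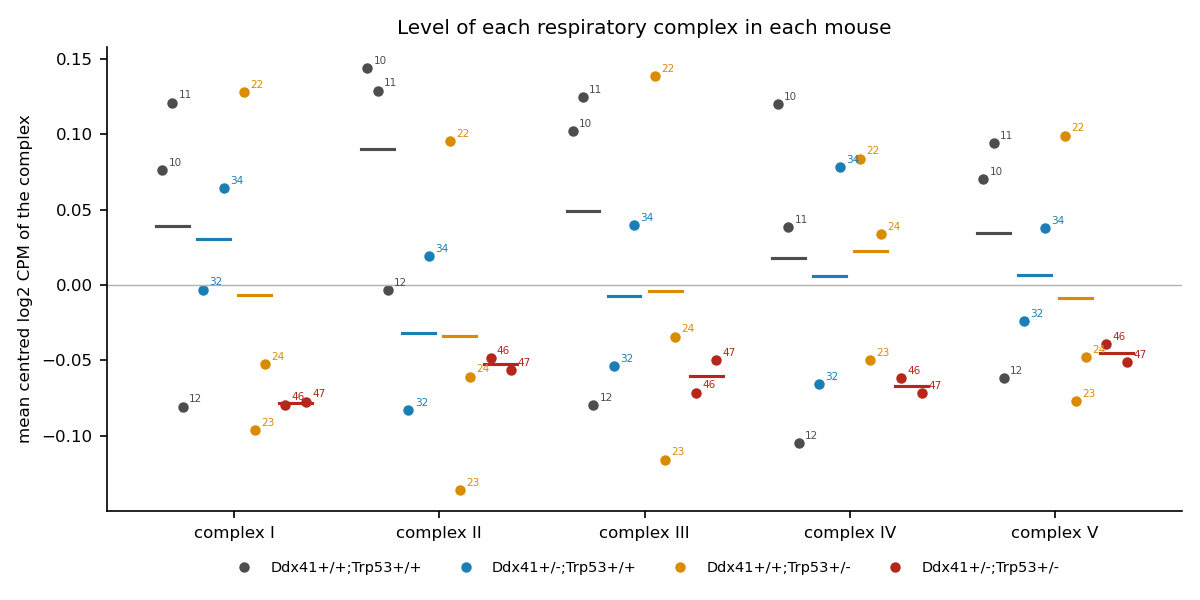
Mean centred log2 CPM of complexes I to V in each of the 10 mice, coloured by genotype and labelled with the mouse number, with a short line at the mean of each genotype. Mice 10, 11, 22 and 34 are above 0 in all 5 complexes, and mice 12, 32, 23, 46 and 47 below it in all 5, so the points of most genotypes spread over much of the axis.

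Mice 10, 11, 22 and 34 were the 4 highest in each of the 5 complexes, and the order of the other mice differed between complexes. In mouse 11, 72 of the 77 members were above their own mean, in mouse 22 there were 70, in mouse 10 there were 63 and in mouse 34 there were 56. In mouse 23 only 10 members were above their mean, and in mouse 47 only 12. The highest value of a member was found in mouse 22 for 30 members, in mouse 11 for 17 and in mouse 10 for 15, and never in mice 32, 23, 46 or 47. In complex I the genotype means were 0.04 ± 0.11 (SD, n = 3) for Ddx41+/+;Trp53+/+, 0.03 ± 0.05 (n = 2) for Ddx41+/-;Trp53+/+, -0.01 ± 0.12 (n = 3) for Ddx41+/+;Trp53+/- and -0.08 ± 0.0014 (n = 2) for Ddx41+/-;Trp53+/-. In complex V they ran from 0.03 ± 0.08 to -0.05 ± 0.01 between the same outer groups. Complex II, with only 4 genes, had the widest range of genotype means at 0.14, and complex V the narrowest at 0.08. For 67 of the 77 members the genotype means covered a smaller range than the mice within some genotype did, or 87.0%, against 82.2% of all tested genes. The shares are close, and a mean of 2 or 3 mice varies less than single mice do, so nothing particular to the members is read from them.

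**Figure D3:**
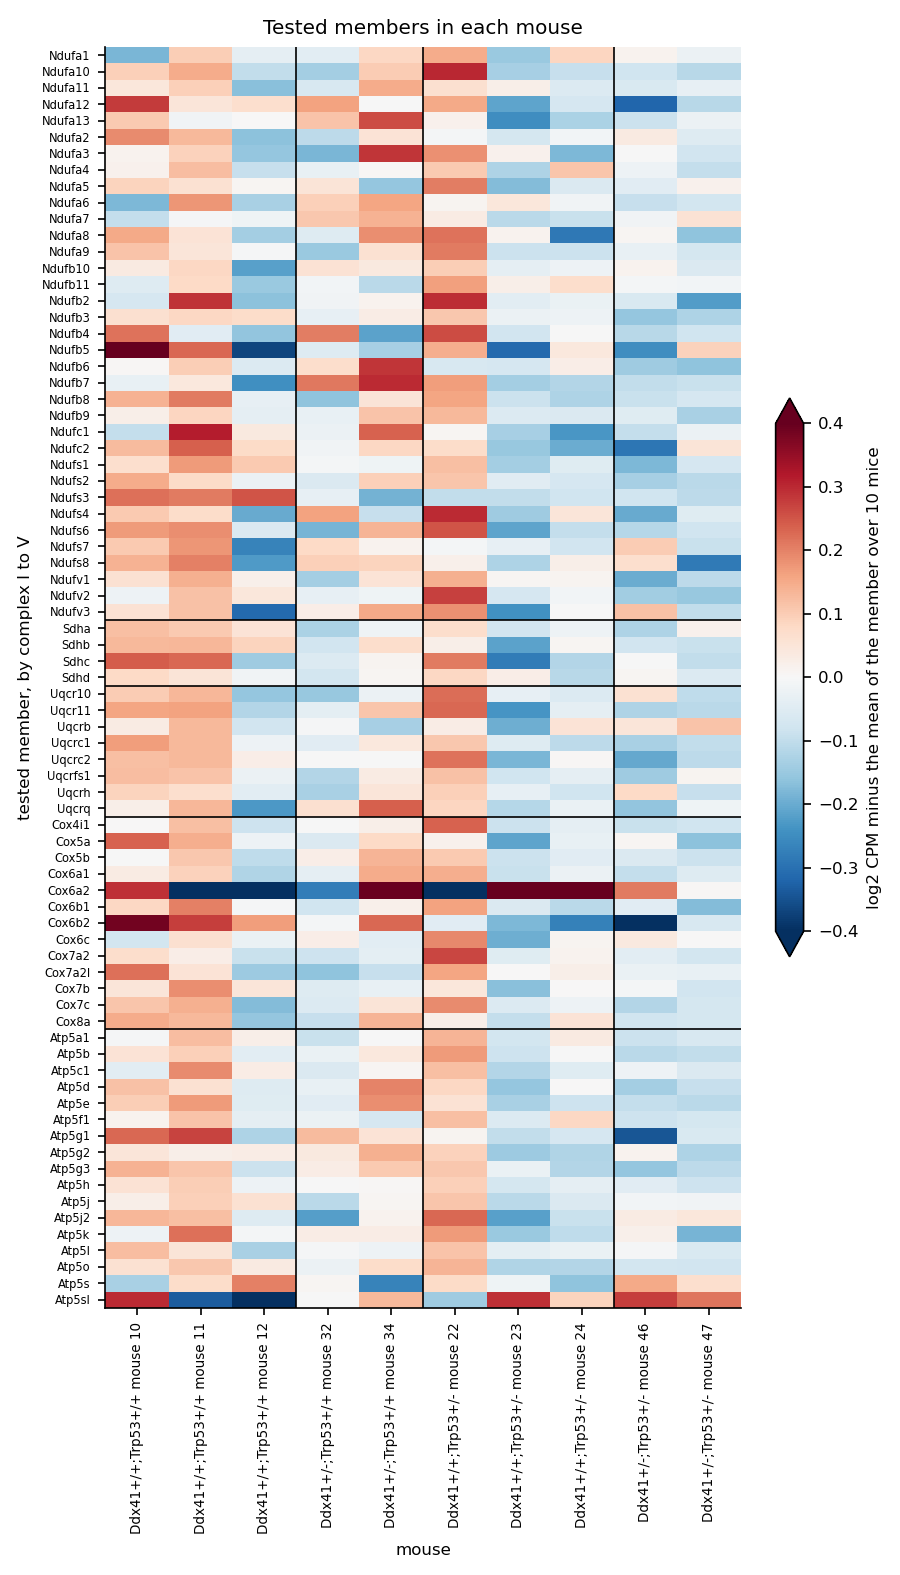
Log2 CPM of each of the 77 tested members in each mouse, as the difference from the mean of that member over 10 mice, with rows grouped into complexes I to V and columns into genotypes. The colour scale ends at 0.4 on either side, beyond which values run to -1.05 and 0.86. The columns of mice 10, 11 and 22 are mostly red and that of mouse 23 mostly blue across all complexes.

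Other gene groups varied by mouse in a like way, and are given beside the members. The 84 tested genes for cytosolic ribosomal proteins averaged 0.07, 0.09 and -0.09 in mice 10, 11 and 12, 0.16, -0.10 and -0.03 in mice 22, 23 and 24, -0.07 and 0.04 in mice 32 and 34, and -0.02 and -0.06 in mice 46 and 47. The 792 other tested genes with transcripts under 1000 bases ranged less, from -0.05 to 0.07. The early erythroid genes (7 genes, such as Kit, Gata2 and Myb) stood at -0.74, -0.33 and 0.21 in mice 10, 11 and 12 and at 0.05 and -0.45 in mice 32 and 34, all Trp53+/+. They stood at 0.15, 0.12 and 0.50 in mice 22, 23 and 24 and at 0.31 and 0.18 in mice 46 and 47, all Trp53+/-. Their genotype means were thus -0.29 and -0.20 with both copies of Trp53 and 0.26 and 0.25 with 1. Neutrophil markers summed to 5575, 5276 and 8431 CPM in mice 10, 11 and 12, and to 8295 and 6170 CPM in mice 32 and 34. They summed to 6003, 5903 and 8254 CPM in mice 22, 23 and 24, and to 8438 and 4927 CPM in mice 46 and 47. By depth, mice 10 and 11 were the deepest libraries and mice 34 and 22 the shallowest. The part of these differences in the levels of the members was not tested, and in sorted bulk cells fewer cells of a type and less RNA per cell cannot be told apart.

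The effect of Ddx41 heterozygosity was first examined in mice with both copies of Trp53. None of the 77 members was called, where a call is an adjusted p under 0.05 in the edgeR quasi-likelihood test, and 0.625% of all tested genes were. At an unadjusted p under 0.05 there were 2 members, or 2.60%, beside 9.64% of all tested genes. DESeq2 called 0 members and 1.43% of all tested genes. The log2 fold changes ran from -0.33 to 0.46 with a median of -0.05, against 0.0010 for all tested genes, and 26 members were higher and 51 lower in value. The median was -0.02 in complex I, -0.13 in complex II, -0.10 in complex III, -0.04 in complex IV and -0.04 in complex V. The 95% interval lay inside a 1.5-fold change in either direction for 74 of the 77 members, or 96.1%, against 51.3% of all tested genes. Most members are well expressed, and genes of like level were not compared. Groups without overlap were seen for 3 members higher and 8 lower, or 3.90% and 10.4%, beside 12.9% and 12.1% of all tested genes.

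Ndufs3, a core subunit of the arm of complex I that carries the iron-sulfur clusters, had the largest change in that complex. It was at 40.6, 40.2 and 41.4 CPM in the Ddx41+/+;Trp53+/+ mice and at 34 and 30.5 CPM in the Ddx41+/-;Trp53+/+ mice. The groups did not overlap, and the log2 fold change was -0.33 ± 0.11 (SE) with an adjusted p of 0.249. In the Ddx41+/+;Trp53+/- mice Ndufs3 was at 32.5, 32.4 and 32.9 CPM, and in the Ddx41+/-;Trp53+/- mice at 32.9 and 32.4 CPM. All 7 heterozygous mice were thus below the 3 mice with both copies of each gene, and they lay within 30.5 to 34 CPM. The interaction of the genotypes was 0.33 (95% interval 0.01 to 0.65, adjusted p = 0.992). Ndufs3 lies at chr2:90894634-90904827 on the minus strand. Of its stretches 28.2% were shared with other genes, of which Gm12251 shared the most. In addition, 88 bases of the Ndufs3 exons overlapped those of Kbtbd4 on the other strand. The counts of Ndufs3 may thus include or miss reads of such genes.

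Ndufb7, an accessory subunit of the membrane arm of complex I, was the other member with an unadjusted p under 0.05. It was at 79.1, 83.2 and 68.1 CPM in the Ddx41+/+;Trp53+/+ mice and at 93.6 and 99.3 CPM in the Ddx41+/-;Trp53+/+ mice, a log2 fold change of 0.33 ± 0.11 (SE, adjusted p = 0.266). The Ddx41+/+;Trp53+/- mice were at 90.7, 73.5 and 74.6 CPM and the Ddx41+/-;Trp53+/- mice at 75.4 and 76.0 CPM. Only the 2 Ddx41+/-;Trp53+/+ mice exceeded all others. Sdha, the catalytic subunit of complex II, was at 196, 193 and 187 CPM with both copies of each gene and at 165 and 178 CPM in the Ddx41+/-;Trp53+/+ mice, a log2 fold change of -0.17 (adjusted p = 0.521). The largest change in complex III was in Uqcrq, at 74.8, 80.9 and 62.8 CPM against 77.0 and 87.0 CPM, which overlapped (adjusted p = 0.695). In complex IV it was in Cox6a2, at 0.34 to 1.05 CPM against 0.67 and 1.14 CPM, and in complex V in Atp5sl, at 2.70 to 6.01 CPM against 4.87 and 5.33 CPM. Both are low genes whose groups overlapped, and the interval for Cox6a2 ran from -0.96 to 1.89.

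The Ddx41 genotypes were next compared in mice with 1 copy of Trp53. None of the 77 members was called by edgeR or by DESeq2. Of all tested genes, 0.0422% were called by edgeR and 0.0591% by DESeq2. An unadjusted p under 0.05 was seen for 2 members, or 2.60%, beside 3.75% of all tested genes. The median log2 fold change was -0.07, against -0.0050 for all tested genes, with 16 members higher and 61 lower (26 higher and 51 lower under library totals without TMM), and intervals inside a 1.5-fold change for 75 of 77. By complex the median was -0.07, -0.02, -0.07, -0.09 and -0.05 from I to V. No member was higher without overlap and 13 were lower, or 16.9%, beside 9.23% and 10.8% of all tested genes. Those 2 members were Ndufv1 and Ndufv2, the core subunits of the NADH-binding module, which are named here after their values were seen. Ndufv1 was at 165, 151 and 151 CPM in the Ddx41+/+;Trp53+/- mice and at 130 and 139 CPM in the Ddx41+/-;Trp53+/- mice, a log2 fold change of -0.21 (adjusted p = 1.00). Ndufv2 was at 103, 81.5 and 84.6 CPM against 77.5 and 76.8 CPM, a log2 fold change of -0.21 (adjusted p = 1.00). The members with the largest change were Ndufb2 in complex I (-0.22), Sdha in complex II (-0.04), Uqcrc2 in complex III (-0.17), Cox6a2 in complex IV (-0.42) and Atp5sl in complex V (0.15). Ndufb2 shared 21.8% of its stretches with other genes, the largest part with Gm42420, which overlaps it on the same strand. Uqcrc2 shared 23.8% with other genes, the largest part with Pdzd9, which overlaps it on the other strand.

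**Figure D4:**
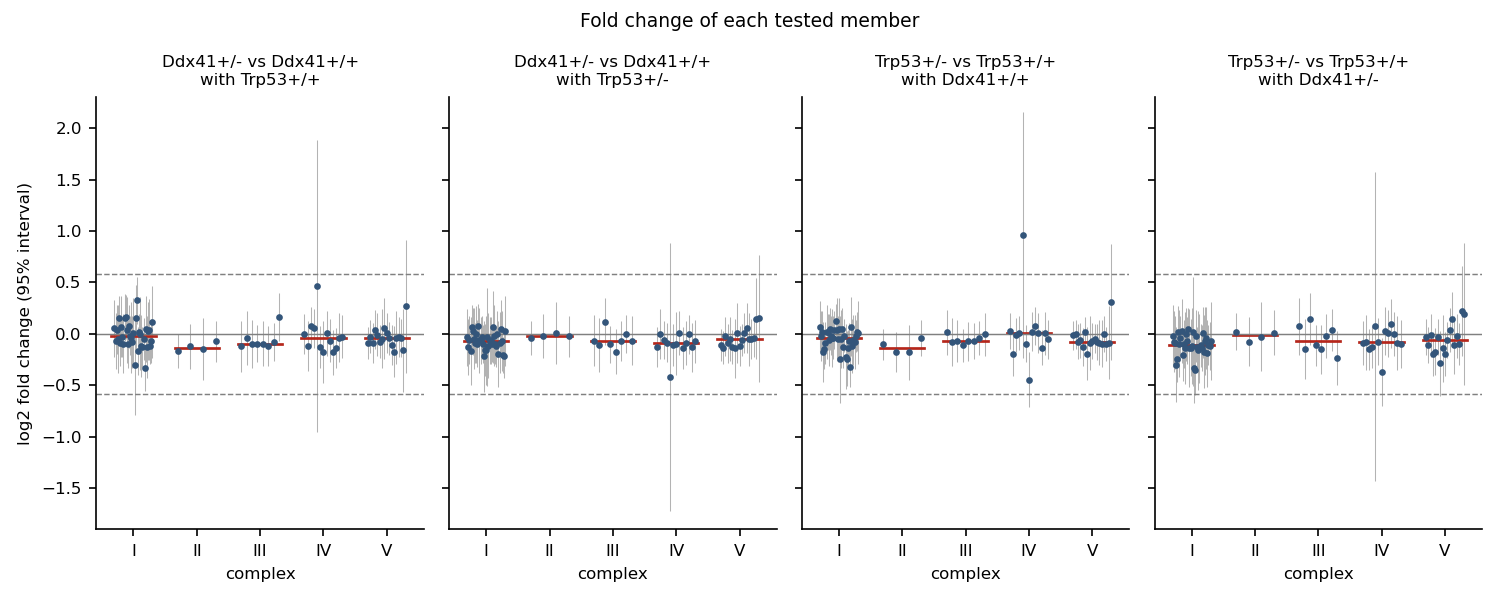
Log2 fold change of each of the 77 tested members in 4 comparisons, by complex, with 95% intervals (grey), medians by complex (red) and a 1.5-fold change in either direction (dashed). Nearly all points lie within 0.3 of 0, and the long intervals belong to Cox6a2 and Atp5sl, which are the lowest members per kb.

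The effect of Trp53 heterozygosity with both copies of Ddx41 shares the 3 Ddx41+/+;Trp53+/+ mice with the comparison of the Ddx41 genotypes, so values that depend on those mice recur. None of the 77 members was called by edgeR or DESeq2, and of all tested genes edgeR called 0.988% and DESeq2 1.76%. The median was -0.05, against 0.00049 for all tested genes, with 23 members higher and 54 lower (11 and 66 under library totals without TMM), and 73 intervals lay inside a 1.5-fold change. Complex IV had a median of 0.0042, and complexes I, II, III and V had medians of -0.04, -0.14, -0.07 and -0.08. Groups without overlap were seen for 0 members higher and 5 lower, or 6.49%, beside 7.58% and 6.53% of all tested genes. The largest changes in the other complexes were -0.18 in Sdhc (adjusted p = 0.712), -0.11 in Uqcrc1, a core subunit of complex III (adjusted p = 0.706), 0.96 in Cox6a2 (95% interval -0.24 to 2.15, adjusted p = 0.648) and 0.31 in Atp5sl (adjusted p = 0.778). The 2 members with an unadjusted p under 0.05, or 2.60% beside 9.44% of all tested genes, were Ndufs3, given above, with a log2 fold change of -0.32 ± 0.09 (SE, adjusted p = 0.158), and Cox6b2.

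Cox6b2, the isoform of complex IV described above, had the lowest edgeR p-value of any member for the Trp53 genotypes with both copies of Ddx41. The same held in the additive model of the Trp53 genotypes and in the test of any difference. In the other comparisons another member had the lowest p-value. Cox6b2 was at 40.1, 37.1 and 34.4 CPM in the Ddx41+/+;Trp53+/+ mice and at 29.7, 27.1 and 25.4 CPM in the Ddx41+/+;Trp53+/- mice. It was at 30.5 and 35.9 CPM in the Ddx41+/-;Trp53+/+ mice and at 21.8 and 29.3 CPM in the Ddx41+/-;Trp53+/- mice. In both backgrounds all Trp53+/- mice were below all Trp53+/+ mice. The log2 fold change was -0.45 ± 0.13 (SE, adjusted p = 0.141) with both copies of Ddx41 and -0.37 ± 0.16 (SE, adjusted p = 0.874) with 1. Over both Ddx41 genotypes, in the additive edgeR model, it was -0.42 (95% interval -0.62 to -0.21) with an adjusted p of 0.066, which missed the threshold. That call depended on the processing: the adjusted p ranged from 0.00208 to 0.208 over 16 other settings, of which 5 passed it. DESeq2 gave an adjusted p of 0.00754, and the edgeR fit without mouse 47 gave 0.0264. The summed level of Cox6b1 and Cox6b2 per kb contained 22.4% to 25.3% of Cox6b2 in the Trp53+/+ mice and 16.8% to 22.9% in the Trp53+/- mice, which overlapped through mouse 47.

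**Figure D5:**
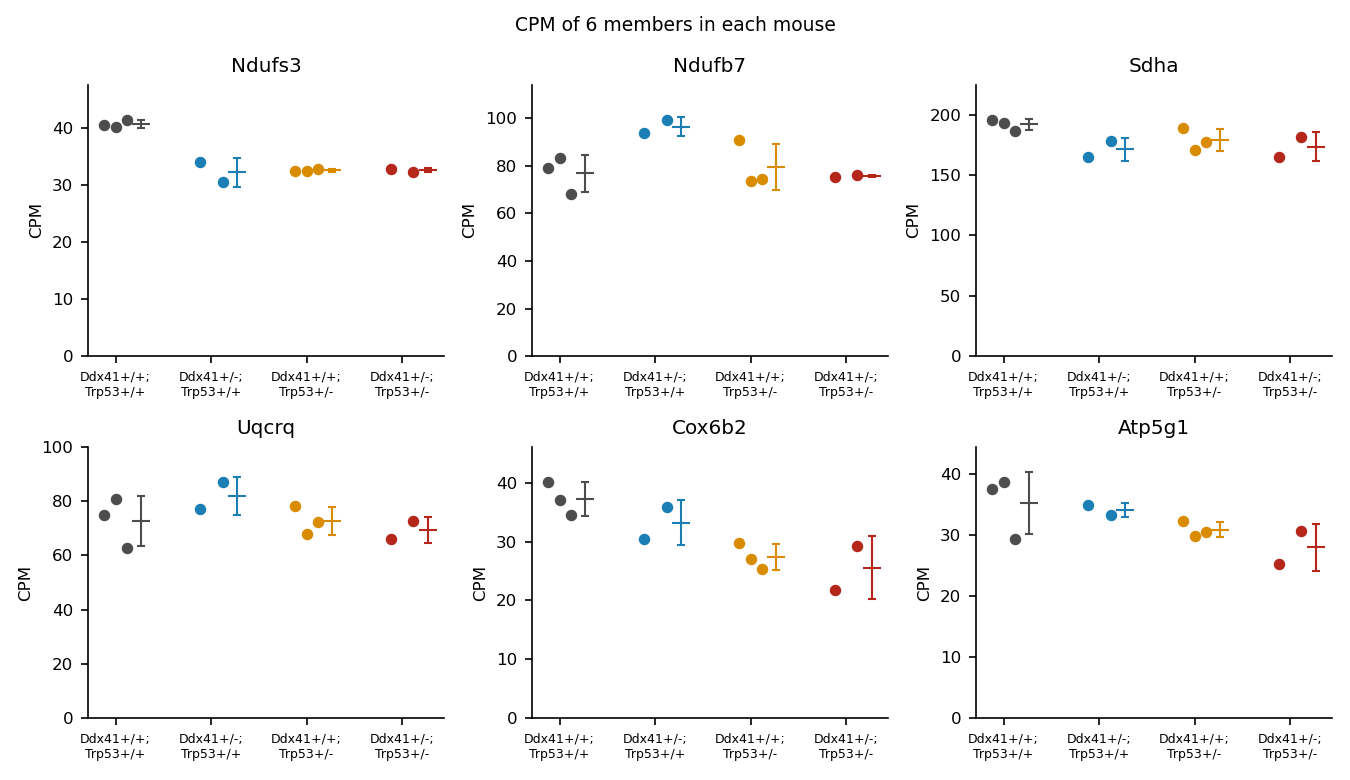
CPM of Ndufs3, Ndufb7, Sdha, Uqcrq, Cox6b2 and Atp5g1 in each mouse by genotype, each axis starting at 0, with the mean and SD of each genotype to the right of its points (n = 3, 2, 3 and 2). Ndufs3 is at 40.2 to 41.4 CPM in the mice with both copies of each gene and at 30.5 to 34 CPM in all others, while Cox6b2 is lower in the Trp53+/- mice of each Ddx41 genotype.

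The Trp53 genotypes were then compared in the Ddx41+/- mice, where each group had 2 mice. None of the 77 members was called by edgeR or DESeq2. Of all tested genes, 0.177% were called by edgeR and 0.422% by DESeq2. An unadjusted p under 0.05 was seen for 3 members, or 3.90%, beside 5.41% of all tested genes. The median was -0.09, against -0.0045 for all tested genes, and 18 members were higher and 59 lower. Medians by complex from I to V were -0.11, -0.0079, -0.07, -0.08 and -0.06, and the intervals of 69 members lay inside a 1.5-fold change. Groups without overlap were more frequent among the members that were lower: 33 members, or 42.9%, beside 18.5% of all tested genes, while 5 members, or 6.49%, were higher beside 18.8%. Of the 33, 14 were in complex I, 4 in complex III, 5 in complex IV and 10 in complex V. Members are not independent of each other, and mice 46 and 47 were both below mice 32 and 34 in the means of complexes I and V. Without mouse 34 the median was -0.04 and without mouse 32 it was -0.12.

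The 3 members were Ndufb7, at 93.6 and 99.3 against 75.4 and 76.0 CPM (log2 fold change -0.35 ± 0.12, SE, adjusted p = 0.629), Cox6b2 as above, and Ndufa13. Ndufa13, an accessory subunit of complex I also known as GRIM-19, is named here after its values were seen. It was at 66.4 and 73.5 CPM against 57.8 and 60.3 CPM, a log2 fold change of -0.24 (adjusted p = 0.903). Of its stretches 25.6% were shared with other genes, the largest part with Tssk6 on the other strand. The largest changes in the other complexes were -0.08 in Sdhb, the iron-sulfur subunit of complex II, -0.24 in Uqcrq and -0.29 in Atp5g1. Atp5g1 was at 34.98 and 33.3 CPM in the Ddx41+/-;Trp53+/+ mice and at 25.3 and 30.7 CPM in the Ddx41+/-;Trp53+/- mice, and its adjusted p was 0.931.

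The additive models used the most mice. For the 6 Ddx41+/+ against the 4 Ddx41+/- mice, edgeR called 0 members and 0.144% of all tested genes, and 1 member (1.299%, beside 8.98% of all tested genes), Ndufv1, had an unadjusted p under 0.05, with a log2 fold change of -0.16 (adjusted p = 0.438). The median of the 77 members was -0.06, against 0.00044 for all tested genes. Of the members 17 were higher and 60 lower, and 49.9% of all tested genes were lower. Leaving out 1 mouse gave 10 to 25 members higher, and library totals without TMM gave 23. For the 5 Trp53+/+ against the 5 Trp53+/- mice, edgeR called 0 members and 0.439% of all tested genes, and DESeq2 called 1 member, Cox6b2, or 1.299%, beside 1.49% of all tested genes. In this model 7 members had an unadjusted p under 0.05, or 9.09%, beside 11.2% of all tested genes. The 7 were lower in value in the Trp53+/- mice, and of all tested genes at that threshold 732 were higher and 594 lower. Ndufs3 (-0.19) and Atp5g1 (-0.23) were among the 7. The median of the members was -0.05, against -0.0024 for all tested genes. Of the members 11 were higher and 66 lower, and 50.7% of all tested genes were lower. In complex I 33 of 35 were lower. Under library totals without TMM 8 of the 77 members were higher. Without mouse 22 there were 6 members higher and without mouse 23 there were 22. The early erythroid genes had higher genotype means in the Trp53+/- mice, as given above, but mouse 12 lay within the range of those mice. EdgeR called none of the 7 early erythroid genes in this model (lowest adjusted p = 0.0567), and Meis1 among them had only 1 to 23 counts. The part of these genes in the values of the members was not tested. The largest positive value was 0.62 in Cox6a2, at 0.34 to 1.63 CPM over all mice.

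The interaction asks whether the effect of the Ddx41 genotype differed between Trp53 genotypes. EdgeR called 0 members and 0.0675% of all tested genes, and DESeq2 called 0 members and 0.245% of all tested genes. Of the members 2, Ndufs3 and Ndufb7, had an unadjusted p under 0.05, or 2.60%, beside 5.01% of all tested genes. For Ndufb7 the interaction was -0.39 (95% interval -0.72 to -0.07, adjusted p = 0.840). The median over members was -0.05, against -0.0077 for all tested genes. In the test of any difference among the 4 genotypes edgeR called 0 members and 1.39% of all tested genes, 4 members had an unadjusted p under 0.05, and DESeq2 called 1 member, Cox6b2. These were 5.19% and 1.299% of the members, beside 10.04% and 2.78% of all tested genes. The 4 were Cox6b2 (adjusted p = 0.149), Ndufs3 (0.211), Ndufb7 (0.409) and Ndufa13 (0.478), all by edgeR.

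The rest of the pathway was read from other lists. Of 5 measured subunit and carrier genes that the name rule did not reach, such as Cyc1 and Cycs for the cytochromes c1 and c, none passed the edgeR test in any of the 8 comparisons. None of the 46 tested assembly factors, of the 16 genes of the tricarboxylic acid cycle and pyruvate dehydrogenase, or of the 13 tested regulators of mitochondrial biogenesis passed it either. The tricarboxylic acid cycle list had medians of -0.10, -0.11, -0.06 and -0.06 in the 4 single comparisons, in the order in which they are described here, and 14, 14, 14 and 11 of its 16 genes were lower. The assembly factors had medians of 0.04, -0.07, 0.01 and -0.06, and the regulators 0.06, -0.07, 0.04 and -0.02. Cs, the citrate synthase that opens the cycle, is named here after its values were seen. It was at an unadjusted edgeR p under 0.05 in both single comparisons that involved the doubly heterozygous mice. Its log2 fold changes were -0.22 with 1 copy of Trp53 and -0.21 with 1 copy of Ddx41 (adjusted p = 0.9997 and 0.903). In each it was the 1 gene of the 16 under that threshold, beside 3.75% and 5.41% of all tested genes. Among 7 early erythroid genes edgeR called only Myb between the Ddx41+/+;Trp53+/- and Ddx41+/+;Trp53+/+ mice, beside 0.988% of all tested genes. Myb was higher in the Ddx41+/+;Trp53+/- mice, with a log2 fold change of 0.84 and an adjusted p of 0.0159. It was also the only one called for any difference among the 4 genotypes (adjusted p = 0.0492), beside 1.39% of all tested genes. No early erythroid gene was called in the other comparisons, and none of the 8 tested late erythroid genes passed in any comparison.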

How the data were processed

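R2 cells of 10 mice were profiled by poly(A) RNA-seq with 75-base paired reads. The authors deposited raw counts of reads per gene symbol in 10 columns, without normalization. The submitters' processing notes name FastQC 0.11.7, HISAT2 2.0.5, featureCounts 1.5.2 and mm10, without their order. The annotation and strand setting are not given in the sources used here, and the labels name a stranded library kit where the study's methods name another TruSeq kit, so reads of a gene and of an antisense partner may not have been told apart, and reads shared with pseudogenes may have been dropped. Mice outside these 10 columns were not analysed here. One erythroid marker is not reported here.

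The members and lists were chosen with earlier results of these data known. Genes were filtered by edgeR's rule by genotype (11846 kept, 12575 not), scaled by TMM and fitted in 1 quasi-likelihood model of 4 genotypes (edgeR 4.0.16 in R 4.3.3), with additive models and an interaction. Tests were two-sided, Benjamini-Hochberg adjustment ran over all tested genes, and a call was an adjusted p under 0.05. The script was tested on simulated data. The standard error was the log2 fold change divided by the square root of F. Log2 CPM used a prior count of 2. Depth was 7866648 to 20283930 counts. Precision was set mainly by the 2 or 3 mice per genotype, and PCR reads are not independent molecules. Alternatives were other scalings and filters, DESeq2 1.42.0 and leaving out each mouse.

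Members named were those called, the largest change of each complex in each single comparison, the highest and lowest per kb, the isoforms, those that failed the filter, and Ddx41 and Trp53. Lengths are those of the RefSeq-matched principal coding transcript, in place of the longest transcript that had been planned, because some longest transcripts held retained introns or long extensions.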

Additional observations from a re-analysis of the deposited data

How the results depend on the processing

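No member was called in 124 of 132 other counts of members called, and in each of the other 8 the single call was Cox6b2. Of these, 4 were for the Trp53 genotypes over both Ddx41 genotypes under library totals, library totals without haemoglobin genes, no filter on low counts and DESeq2, each with 1 member called. Without a filter there was also 1 member called for the Trp53 genotypes with Ddx41+/+ and 1 for any difference among the 4 genotypes, and DESeq2 called 1 for any difference. Leaving out 1 mouse at a time gave 0 to 1 members called for the Trp53 genotypes over both Ddx41 genotypes (1 without Ddx41+/-;Trp53+/- mouse 47) and 0 to 0 in every other comparison. At an unadjusted p under 0.05 there were 2 members for the Ddx41 genotypes with Trp53+/+, 2 with Trp53+/-, 2 and 3 for the Trp53 genotypes with Ddx41+/+ and Ddx41+/-, 1 and 7 in the additive models, 2 for the interaction and 4 for any difference. All 102 other values of the median member were negative. Leaving out 1 mouse moved the median from -0.09 to -0.01 and from -0.11 to -0.0026 for the Ddx41 genotypes with Trp53+/+ and Trp53+/-, from -0.10 to -0.0011 and from -0.12 to -0.04 for the Trp53 genotypes with Ddx41+/+ and Ddx41+/-, and from -0.09 to -0.03 and from -0.09 to -0.04 in the additive models. The split of higher and lower members rested on single mice: 26 higher became 12 without mouse 12 and 36 without mouse 11 for Ddx41 with Trp53+/+, 16 became 8 without mouse 23 and 37 without mouse 22 for Ddx41 with Trp53+/-, 18 became 13 without mouse 46 and 27 without mouse 34 for Trp53 with Ddx41+/-, and 23 became 5 without mouse 22 and 38 without mouse 23 for Trp53 with Ddx41+/+. Under library totals, 26 were higher for Ddx41 with Trp53+/- and 11 for Trp53 with Ddx41+/+. DESeq2 gave no adjusted p for 1 member in the additive Ddx41 comparison. For the largest change of each complex in the 4 single comparisons, 336 of 337 other values kept their sign and stayed uncalled, and Sdha was 0.0275 for Ddx41 with Trp53+/- without Ddx41+/-;Trp53+/- mouse 46, and the cause was not tested. Calls over all genes also moved, from 117 to 366 without a filter and 209 by DESeq2 for Trp53 with Ddx41+/+, from 74 to 333 and 169 for Ddx41 with Trp53+/+, from 5 to 62 and 7 for Ddx41 with Trp53+/-, from 21 to 97 and 50 for Trp53 with Ddx41+/-, and from 52 to 361 and 177 for Trp53 over both Ddx41 genotypes. These are counts among 11846 genes, or 16135 without a filter, and are not comparable in size with counts among 77 or 81 members. The longest transcript was the planned length, and the main coding transcript took its place after the data had been seen. The planned length gave complex medians of 36.8, 44.3, 83.9, 88.7 and 81.4 CPM per kb from I to V. No paired analysis was possible because the genotypes share no replicate numbers.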
